A study of Mus musculus with 12 samples.

Results

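The interleukin and interleukin receptor genes outside the IL-1 and IL-36 families, Il18 and Il33 were described in the dorsal skin of mice with dermatitis induced by 2,4-dinitrochlorobenzene (DNCB). They are the genes whose symbol begins with Il and a digit, without Il1 followed by a letter, Il18, Il33 and Il36, and number 62 of 36400 genes in the deposited table. Of these, 26 encode ligands and 36 encode receptor chains, binding proteins or an enzyme. The 50 members with a mean of at least 0.1 FPKM (fragment counts scaled to transcript length and library size) over all 12 libraries were tested, among 21890 genes in all. The 12 members under that level were Il2, Il4i1, Il5, Il5ra, Il9, Il9r, Il12b, Il17f, Il21, Il22, Il23r and Il25.

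Bulk RNA was sequenced in 3 libraries for each of 4 groups of mice. The mice were female BALB/c, bought at 6 weeks of age and sampled on day 30. The study describes 6 mice per group. Neither its methods nor the labels say which mice gave the libraries, or whether RNA was pooled. Control mice received the vehicle of acetone and olive oil. DNCB mice were sensitized with 1% DNCB from day 0 to day 9 and challenged with 0.5% DNCB from day 12 to day 27. The scMSC and scivMSC mice had the same DNCB course and 4 injections of human umbilical cord mesenchymal stem cells (MSCs) from day 13 to day 25, at 2000000 cells per injection. The scMSC mice received 100 µL under the skin beside the lesion, and the scivMSC mice 50 µL there and 50 µL into the tail vein. The study's methods describe no injection of carrier alone, so the cells and the act of injecting them cannot be told apart. The estimated counts summed to between 63877153 and 75134001 per library, and about 4 estimated counts stood for 1 fragment. The floor was set at 3 fragments per library, an allowance for counting error alone, and a gene is called at the floor in a group where no library exceeds it. In these bulk samples, fewer cells of a type and less RNA per cell cannot be told apart.

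Interleukins are secreted proteins that act on cells through paired receptor chains, and many receptor chains are shared. IL-4 and IL-13 act through IL-4Rα, encoded by Il4ra, paired with the common gamma chain Il2rg or with Il13ra1, and antibodies to IL-4Rα are used in atopic dermatitis. IL-6 and IL-11 signal through gp130, encoded by Il6st. IL-19, IL-20 and IL-24 act on keratinocytes through Il20ra paired with Il20rb, IL-20 and IL-24 also through Il22ra1 paired with Il20rb, and IL-22 through Il22ra1 paired with Il10rb. IL-17 acts on keratinocytes through Il17ra and Il17rc, and its response genes attract neutrophils. Most of these receptors pass their signal to Janus kinases and STAT proteins, whereas IL-17 receptors act through the adaptor Traf3ip2 toward NF-kB.

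Among ligand genes with a RefSeq promoter entry, Il19, Il20 and Il6 were chosen by hand after their values were seen. Their start regions are shown because Il19 and Il20 lie next to each other and moved in opposite directions with DNCB, and because Il6 fell after MSCs. Each sequence is the 250 bases before the RefSeq start on build GRCm38.p6, written 5′ to 3′ on the gene's strand. Capitals mark matches, on either strand, to TTCNNNGAA (STAT), TGANTCA (AP-1) or GGGANTTTC (NF-kB), and none of the matches printed overlap. Il19 lies on the minus strand at chr1:130940116-130940365, Il20 on the minus strand at chr1:130911297-130911546 and Il6 on the plus strand at chr5:30012864-30013113.
Il19: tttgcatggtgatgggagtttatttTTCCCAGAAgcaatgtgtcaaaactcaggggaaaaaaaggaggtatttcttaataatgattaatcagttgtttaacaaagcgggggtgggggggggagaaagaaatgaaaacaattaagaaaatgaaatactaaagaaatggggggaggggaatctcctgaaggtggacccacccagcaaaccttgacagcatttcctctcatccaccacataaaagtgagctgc
Il20: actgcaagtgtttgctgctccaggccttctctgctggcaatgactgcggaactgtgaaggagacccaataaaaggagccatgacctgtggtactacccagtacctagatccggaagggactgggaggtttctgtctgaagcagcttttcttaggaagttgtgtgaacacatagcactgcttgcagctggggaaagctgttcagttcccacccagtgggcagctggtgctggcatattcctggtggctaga
Il6: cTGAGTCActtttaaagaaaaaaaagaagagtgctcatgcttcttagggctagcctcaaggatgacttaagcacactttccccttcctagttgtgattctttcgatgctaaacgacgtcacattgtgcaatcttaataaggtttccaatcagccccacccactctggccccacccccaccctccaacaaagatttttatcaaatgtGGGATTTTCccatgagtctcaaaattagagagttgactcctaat
The Il19 window held 1 STAT match, beginning 225 bases before the start. The Il6 window held an AP-1 match 249 bases and an NF-kB match 44 bases before the start, and the Il20 window held no match. Among 32851 promoter windows of this length, 7.02% held the STAT letters, 6.75% the AP-1 letters and 0.941% the NF-kB letters. For 46 members entries were searched, with 55 windows in all, and 5, 11 and 2 of these members held the letters in any window. These are counts of genes, some with several windows, so they cannot be compared with the shares of single windows. Il24 had no entry.

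The median level of the ligand genes, as the mean FPKM over the 12 libraries, was below that of the receptor genes. The 18 ligands tested had a median of 0.411 FPKM, 5 had a mean of at least 1 FPKM, and none had a mean of 10 FPKM. The 32 receptor and other genes tested had a median of 2.16 FPKM, 21 had at least 1 FPKM and 5 at least 10 FPKM. The highest ligand was Il34 at 7.63 FPKM, a ligand of the CSF-1 receptor that keratinocytes make and that maintains Langerhans cells, and it reached 11.4 FPKM in a control library. The highest receptor gene was Il17rc at 32.0 FPKM, followed by Il13ra1 at 24.1 FPKM, Il6st at 20.3 FPKM, Il11ra1 at 17.0 FPKM and Il20rb at 13.7 FPKM. Il2, Il9, Il12b, Il21, Il22 and Il25 were at the floor in every group. For those 6 ligands no difference was detectable at this depth.

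**Figure D1:**
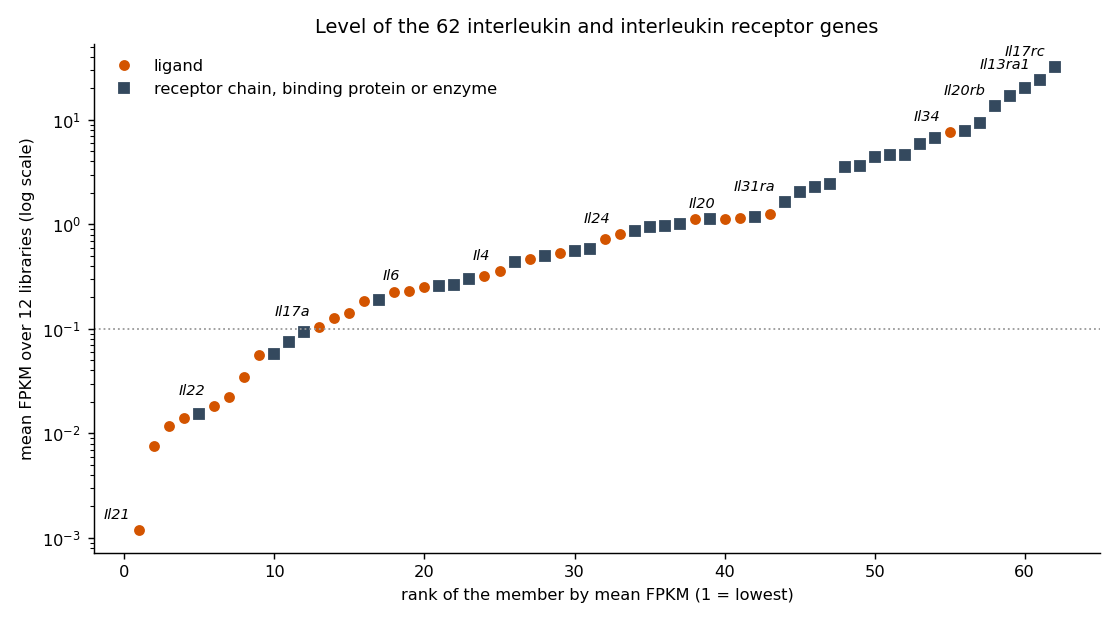
Each point is a gene, placed by its rank and by its mean FPKM over 12 libraries on a log scale, with ligands as circles and receptor chains, binding proteins and the enzyme as squares. The dotted line is the 0.1 FPKM minimum for testing; the highest ligand, Il34 at 7.63 FPKM, lies below 7 receptor genes, and Il17rc is highest at 32.0 FPKM.

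Compared with the control group, the DNCB group had more RNA of Il19, Il24, Il18rap, Il4ra, Il11, Il17ra and Il2rg, and less of Il20, Il31ra, Il22ra2, Il20ra and Il11ra2. Calls required a change of over 2-fold and an adjusted p (Benjamini-Hochberg) under 0.05 in edgeR's quasi-likelihood test. By this rule 7 members rose and 5 fell, 24.0% of those tested beside 14.2% of all genes (6.59% higher and 7.57% lower). At an adjusted p under 0.05 without the 2-fold limit, 13 members passed, 26.0% beside 25.3% of all genes, a share close to the background. The median log2 fold change of the members was 0.01, beside 0.02 over all genes. The count fell to 7 without control replicate 2, to 7 without DNCB replicate 1 and to 6 without DNCB replicate 2. Each FPKM of the DNCB group lay above all 9 other libraries for 15 members (30%, beside 9.44% of all genes), which were Il4ra, Il13ra1, Il2rg, Il21r, Il6, Il10, Il10ra, Il10rb, Il16, Il17b, Il17ra, Il18rap, Il19, Il23a and Il24. Of these, Il6, Il10, Il21r and Il24 reached the 0.1 FPKM minimum only through their DNCB libraries. Their place above the rest and the DNCB call of Il24 were thus partly set by the minimum, and the count is a description. Each DNCB value lay below all others for Il20, Il20ra and Il11ra2 (6%, beside 4.03%).

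Compared with the DNCB group, 12 members were called in scMSC skin (2 higher, 10 lower), 24.0% beside 8.50% of all genes (4.66% higher and 3.84% lower). Without the 2-fold limit 13 passed, 26.0% beside 12.7%. Il4ra, Il13ra1, Il2rg, Il21r, Il18rap, Il6, Il15, Il16, Il19 and Il24 were lower, and Il20ra and Il11ra2 were higher. Of the lower members, Il6, Il21r and Il24 reached the 0.1 FPKM minimum only through their DNCB libraries. Their falls, the share called and the median were thus partly set by the minimum. The median log2 fold change of the members was -0.56, or -0.43 with the 3 members that scMSC libraries list at 0 put at their bound, beside 0.02 over all genes. The count was 7 without DNCB replicate 1 and 7 without DNCB replicate 3. In scivMSC skin 8 members were called against the same DNCB libraries (3 higher, 5 lower), 16.0% beside 5.46% of all genes (3.13% higher and 2.33% lower). Without the 2-fold limit 8 passed, 16.0% beside 8.16%. Il4ra, Il2rg, Il18rap, Il6 and Il16 were lower, and Il20, Il20ra and Il11ra2 were higher, with a median of -0.26. The limit set by the minimum holds for Il6 here too. This count rested on single libraries: it was 1 without DNCB replicate 1, 1 without DNCB replicate 2, 2 without DNCB replicate 3, 0 without scivMSC replicate 1 and 2 without scivMSC replicate 3.

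Compared with the control group, 2 members were called in scMSC skin, both lower (4.00%, beside 9.32% of all genes, of which 5.12% were higher and 4.20% lower). These were Il15 and Il21r, and without the 2-fold limit 4 passed, 8% beside 18.5%. In scivMSC skin 1 was called, Il12a, also lower (2.00%, beside 6.85% of all genes, 3.50% higher and 3.35% lower), and without the 2-fold limit 1 passed, beside 13.2%. No member was called between the routes in edgeR, where 0.00457% of all genes were called, and 7 members (14.0%, beside 7.50% of all genes) had an unadjusted p under 0.05. DESeq2 called 1, Il19, and limma on log2(FPKM + 0.1) called 0. The lowest adjusted p of a member between the routes was 0.565 in edgeR and 0.00183, for Il19, in DESeq2. The members' median log2 fold change of scivMSC against scMSC was 0.36, beside 0.01 over all genes.

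**Figure D2:**
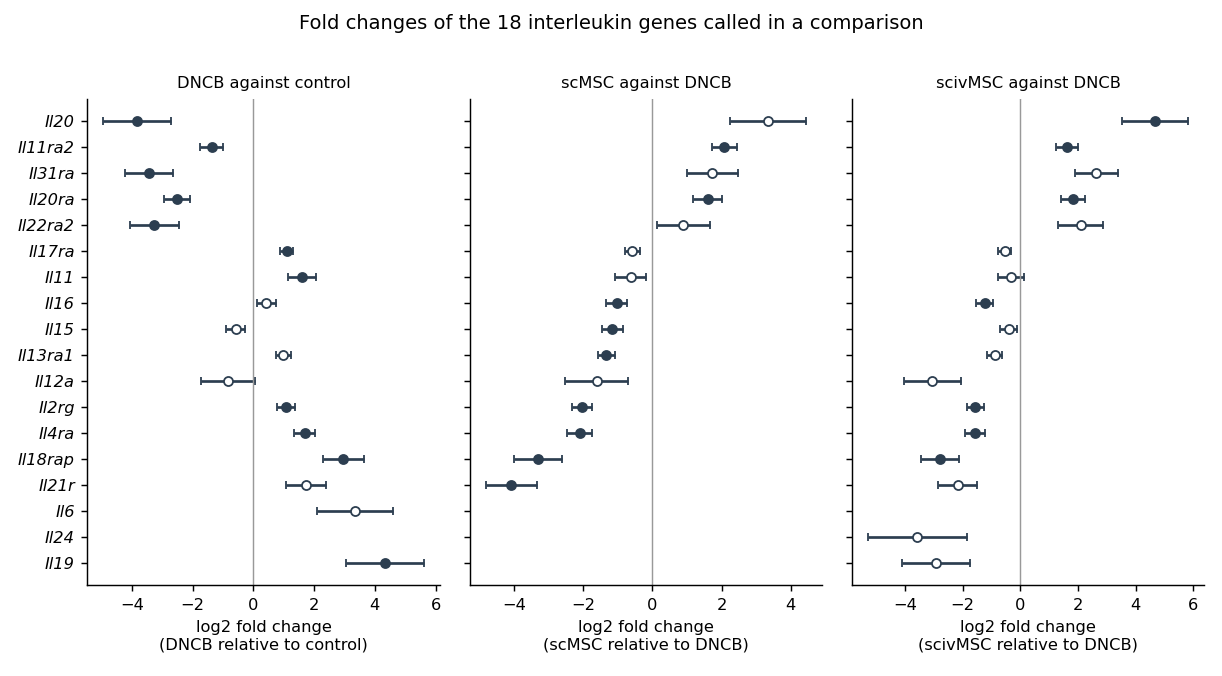
Points are log2 fold changes with their standard errors for the 18 members called in a comparison, in 3 comparisons, with filled points for called changes and open points for the others. A member has no point where a group held at most 3 fragments in all; Il4ra, Il2rg and Il18rap lie right of 0 in DNCB against control and left of 0 in both MSC comparisons, which share the DNCB libraries.

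Among the type 2 receptors, Il4ra was called in DNCB against control and in both MSC groups against DNCB. Its FPKM were 4.65, 5.42 and 6.44 in the control, 17.3, 16.4 and 26.7 in DNCB, 6.51, 4.30 and 3.21 in scMSC, and 7.24, 9.81 and 3.41 in scivMSC skin. All DNCB libraries lay above the other 9, whose groups overlapped each other. The log2 fold change was 1.69 ± 0.35 (SE) in DNCB against control (adjusted p = 0.00581), -2.09 ± 0.36 in scMSC against DNCB (adjusted p = 0.00461) and -1.57 ± 0.35 in scivMSC against DNCB (adjusted p = 0.0229). The last of these was lost without any one of DNCB replicates 1 to 3 or scivMSC replicates 1 and 3 (adjusted p from 0.0516 to 0.0789). Il13ra1, the chain that joins IL-4Rα to bind IL-13, measured 14.9, 15.9 and 23.4 FPKM in the control, 40.2, 40.3 and 41.2 in DNCB, 21.8, 14.7 and 11.4 in scMSC and 21.1, 29.3 and 15.6 in scivMSC skin. Its DNCB libraries again lay above all others. It rose in DNCB by a log2 fold change of 0.99 ± 0.25 (adjusted p = 0.0147), just under 2-fold, which was lost without control replicate 1 or control replicate 2 (adjusted p of 0.0773 and 0.0666). It fell in scMSC by 1.33 ± 0.25 (adjusted p = 0.00705), and in scivMSC against DNCB its log2 fold change was -0.89 ± 0.25 (adjusted p = 0.0530).

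Il31ra, the IL-31 receptor chain known for itch, moved the other way. It measured 3.58, 1.49 and 4.33 FPKM in the control, 0.350, 0.139 and 0.479 in DNCB, 2.33, 0.532 and 0.366 in scMSC and 3.48, 1.3 and 1.22 in scivMSC skin. The DNCB libraries lay below every control and scivMSC library, and 1 scMSC library lay within the DNCB range. Il31ra fell in DNCB by 3.44 ± 0.78 on the log2 scale (adjusted p = 0.00879). Its log2 fold change against DNCB was 1.73 ± 0.73 in scMSC (adjusted p = 0.164) and 2.63 ± 0.75 in scivMSC (adjusted p = 0.0579). Il13ra2, a decoy receptor for IL-13, ranged from 0.340 to 2.00 FPKM, and its groups overlapped. The 3 type 2 ligands among the members were Il4, Il5 and Il9. Il4 ranged from 0.246 to 0.591 FPKM over the 12 libraries, with an adjusted p from 0.817 to 0.987 in the 6 comparisons. Il5 and Il9 were below the level tested. Il31, the ligand of Il31ra, was not among the members, and Il13 was not analysed here.

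**Figure D3:**
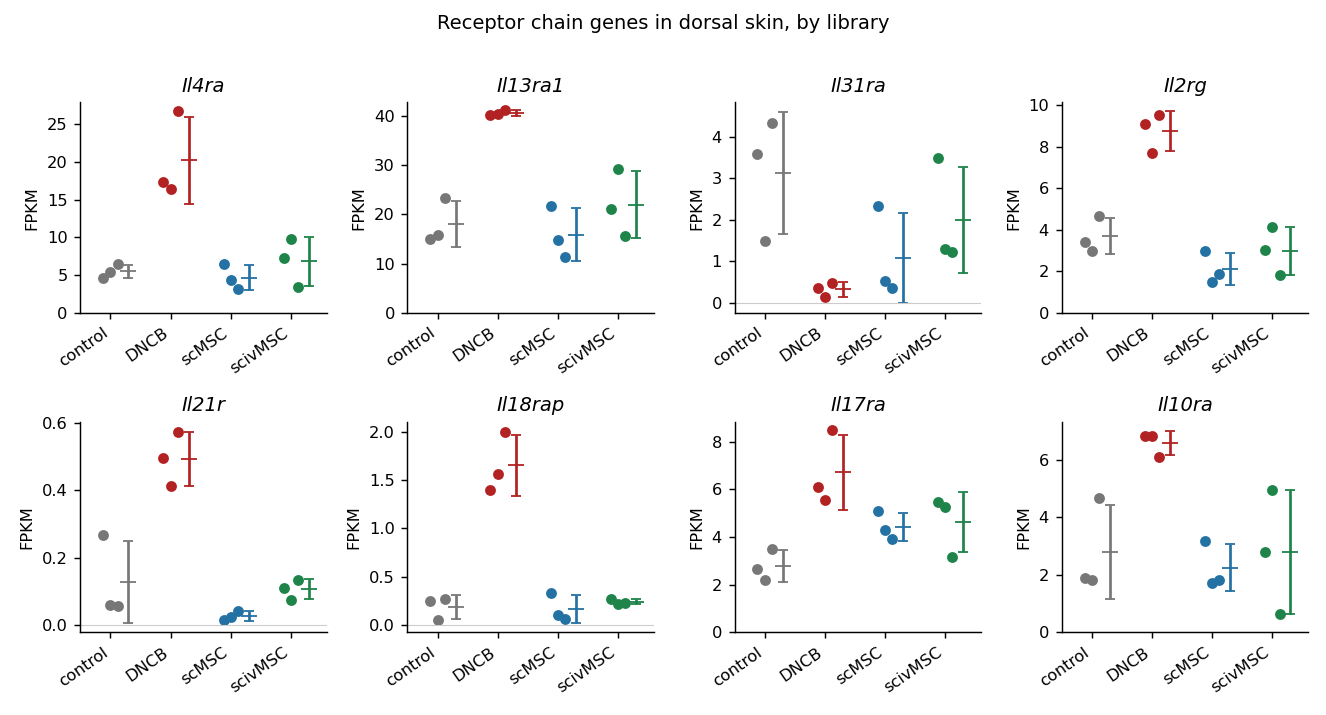
FPKM of 8 receptor chain genes in each library (points, 3 per group), with the group mean and SD beside them; each panel has its own FPKM axis. In the panels of Il4ra, Il13ra1, Il2rg, Il21r, Il18rap, Il17ra and Il10ra the DNCB libraries lie above all 9 others, and Il31ra is low in DNCB, at 0.139 to 0.479 FPKM.

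The common gamma chain Il2rg, shared by the receptors of IL-2, IL-4, IL-7, IL-9, IL-15 and IL-21, rose in DNCB and fell after MSCs. Its FPKM were 3.41, 3.00 and 4.68 in the control, 9.07, 7.70 and 9.52 in DNCB, 2.97, 1.5 and 1.89 in scMSC, and 3.02, 4.12 and 1.81 in scivMSC skin. The DNCB libraries stood above the rest, and every scMSC library lay below every control library. Log2 fold changes were 1.07 ± 0.29 in DNCB against control (adjusted p = 0.0218), -2.03 ± 0.30 in scMSC against DNCB (adjusted p = 0.00272) and -1.56 ± 0.30 in scivMSC against DNCB (adjusted p = 0.0129). The rise in DNCB was lost without control replicate 1 or 2 or DNCB replicate 1 or 3 (adjusted p from 0.0613 to 0.0904), and the fall in scivMSC without scivMSC replicate 1 (adjusted p = 0.0530). In scMSC against control it was -0.96 ± 0.29 (adjusted p = 0.0440), under 2-fold, and this was lost when any of 9 single libraries was left out (adjusted p from 0.0511 to 0.133). Those were control replicates 1 to 3, DNCB replicates 1 to 3, scMSC replicates 2 and 3 and scivMSC replicate 1. Of 21 alternative runs in all, 15 lost it, among them those with library size alone, without a filter and with limma.

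Il21r, the IL-21 receptor of lymphocytes, was much rarer. It measured 0.268, 0.0604 and 0.0565 FPKM in the control, 0.495, 0.412 and 0.573 in DNCB, 0.0138, 0.0242 and 0.0430 in scMSC and 0.110, 0.0749 and 0.133 in scivMSC skin. The scMSC libraries were at the floor and below all others. Il21r fell in scMSC against DNCB by 4.07 ± 0.74 on the log2 scale (adjusted p = 0.00594), and its log2 fold change was -2.17 ± 0.67 in scivMSC against DNCB (adjusted p = 0.0751). In scMSC against control it fell by 2.34 ± 0.70 (adjusted p = 0.0410), or by 1.26 without control replicate 1. That call was lost without control replicate 1, any DNCB library, any scMSC library or scivMSC replicate 1 (adjusted p from 0.0533 to 0.174). Of 20 alternative runs in all, 13 lost it, among them those without a filter and with limma.

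Il15, which sustains memory T cells and natural killer cells, was lowest in scMSC skin. It measured 0.881, 1.27 and 1.16 FPKM in the control, 0.791, 0.806 and 0.902 in DNCB, 0.523, 0.285 and 0.300 in scMSC and 0.649, 0.693 and 0.529 in scivMSC skin. The scMSC libraries lay below the other 9, the nearest being 0.523 against 0.529 FPKM. Il15 fell in scMSC by 1.74 ± 0.30 on the log2 scale against control (adjusted p = 0.00394) and by 1.15 ± 0.30 against DNCB (adjusted p = 0.0304). The latter was lost without any DNCB library or without scMSC replicate 2 or 3 (adjusted p from 0.0703 to 0.101). In scivMSC against control its log2 fold change was -0.99 ± 0.30 (adjusted p = 0.0510). Its receptor chain Il15ra ranged from 1.76 to 5.04 FPKM and passed in no comparison. Il2ra, Il2rb and Il7r ranged from 0.122 to 1.51 FPKM and were not called, nor was Il7.

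In the IL-20 family, Il19 and Il24 rose in DNCB skin while Il20, which lies between them in the genome, fell. Il24, Il20, Il19 and Il10 follow each other on chromosome 1 of GRCm38, with gaps of 19530, 21204 and 79743 bases. Il19 measured 0, 0.170 and 0.328 FPKM in the control, 4.66, 1.96 and 4.89 in DNCB, 0 in each scMSC library, and 0.0403, 0.993 and 0.431 in scivMSC skin. The DNCB libraries were above all others. Il19 rose in DNCB by a log2 fold change of 4.33 ± 1.28 (adjusted p = 0.0369), and ran from 3.71 without control replicate 1 to 5.16 without control replicate 3. That call was lost without any one of the 3 control or 3 DNCB libraries (adjusted p from 0.0545 to 0.1). In scMSC skin Il19 was at least 29.4-fold lower than in DNCB skin, taking the floor of 3 fragments per library (adjusted p = 0.00893). In scivMSC against DNCB its log2 fold change was -2.93 ± 1.18 (adjusted p = 0.180). In scivMSC against scMSC Il19 was at least 3.84-fold higher, with an adjusted p of 0.565 in edgeR and 0.00183 in DESeq2.

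Il24 was detected in DNCB skin at 3.76, 2.35 and 2.83 FPKM. It was at 0 in every control and scMSC library and in 2 scivMSC libraries, the other scivMSC library holding 0.760 FPKM. It was at least 22.0-fold higher in DNCB than in control skin (adjusted p = 0.0314) and at least 27.6-fold lower in scMSC than in DNCB skin (adjusted p = 0.0475). The first call was lost without any control or DNCB library (adjusted p from 0.0628 to 0.0756). The second was lost without control replicate 1 or 2 or any DNCB or scMSC library (adjusted p from 0.0506 to 0.110). Il20 measured 0.729, 1.97 and 0.758 FPKM in the control, 0.172, 0.0935 and 0 in DNCB, 0.899, 0.597 and 1.32 in scMSC and 1.76, 0.438 and 4.85 in scivMSC skin. Each DNCB library lay below the other 9, and the scivMSC libraries were the most spread. Il20 fell in DNCB by 3.82 ± 1.12 on the log2 scale (adjusted p = 0.0284) and rose in scivMSC against DNCB by 4.68 ± 1.15 (adjusted p = 0.0325). With single libraries left out these ran from -4.66 (DNCB replicate 1) to -3.19 (control replicate 2), and from 3.52 (scivMSC replicate 3) to 5.53 (DNCB replicate 1). The fall was -3.23 without DNCB replicate 3. It was lost without control replicate 2, DNCB replicate 2 or DNCB replicate 3 (adjusted p from 0.0551 to 0.0810). The rise was lost without any DNCB library or without scivMSC replicate 1 or 3 (adjusted p from 0.0659 to 0.110). In scMSC against DNCB the log2 fold change of Il20 was 3.34 ± 1.10 (adjusted p = 0.0740).

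**Figure D4:**
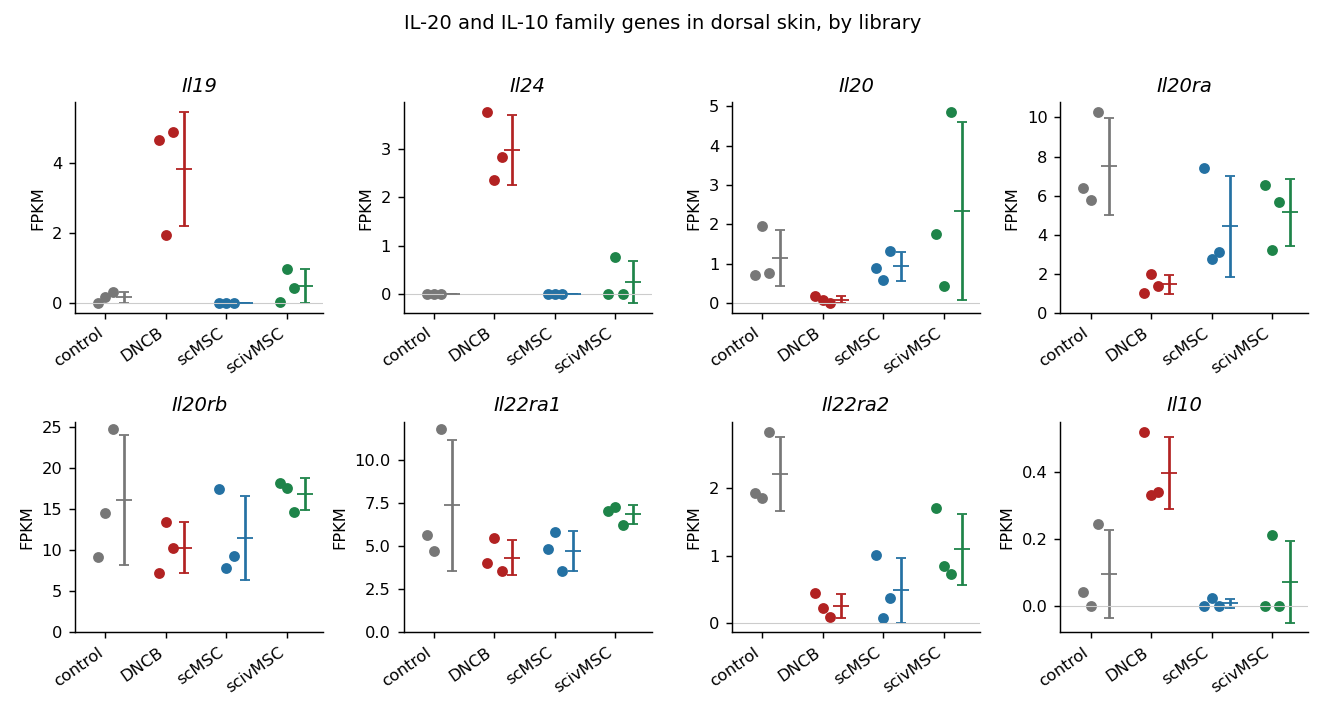
FPKM of 8 IL-20 and IL-10 family genes in each library (points, 3 per group), with the group mean and SD beside them; each panel has its own FPKM axis. Il19, Il24 and Il10 are highest in the 3 DNCB libraries, and Il20 and Il20ra are lowest there.

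The receptor chain Il20ra fell with Il20 in DNCB skin, and its partner Il20rb was not called. Il20ra measured 6.37, 5.76 and 10.3 FPKM in the control, 1.02, 1.99 and 1.37 in DNCB, 7.40, 2.75 and 3.11 in scMSC and 6.54, 3.22 and 5.66 in scivMSC skin. All DNCB libraries were below the other 9. Its log2 fold change was -2.52 ± 0.43 in DNCB against control (adjusted p = 0.00242), 1.60 ± 0.42 in scMSC against DNCB (adjusted p = 0.0313) and 1.82 ± 0.42 in scivMSC against DNCB (adjusted p = 0.0270). The second was lost without DNCB replicate 1 or 3 or scMSC replicate 1 (adjusted p from 0.0979 to 0.116). The third was lost without any DNCB library or without scivMSC replicate 1 or 3 (adjusted p from 0.0517 to 0.101). Il20rb ranged from 7.16 to 24.7 FPKM with overlapping groups (adjusted p = 0.122 in DNCB against control).

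Il22ra2 encodes a soluble protein that binds IL-22 and keeps it from its receptor, and lies 77888 bases from Il20ra on chromosome 10. It measured 1.93, 1.85 and 2.83 FPKM in the control, 0.445, 0.228 and 0.0921 in DNCB, 1.01, 0.0729 and 0.379 in scMSC and 1.70, 0.852 and 0.729 in scivMSC skin. The control libraries lay above all others. It fell in DNCB by 3.27 ± 0.81 on the log2 scale (adjusted p = 0.0139). The log2 fold change was -3.92 without DNCB replicate 1, and the call was lost without DNCB replicate 2 (adjusted p = 0.0520). In scMSC against control its log2 fold change was -2.36 ± 0.78 (adjusted p = 0.0580). Il22ra1, the IL-22 receptor chain itself, ranged from 3.54 to 11.8 FPKM, with a log2 fold change of -0.93 ± 0.31 in DNCB against control (adjusted p = 0.0525).

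IL-10, which restrains inflammation, was rare. Il10 measured 0.0397, 0 and 0.244 FPKM in the control, 0.522, 0.332 and 0.340 in DNCB, 0, 0.0233 and 0 in scMSC and 0, 0.212 and 0 in scivMSC skin. The DNCB libraries lay above the others, and Il10 was not called (adjusted p = 0.469 in DNCB against control, 0.143 in scMSC against DNCB). Its receptor chain Il10ra measured 6.82, 6.83 and 6.11 FPKM in DNCB and from 0.639 to 4.95 FPKM in the other groups, with a log2 fold change of 1.08 ± 0.57 in DNCB against control (adjusted p = 0.198) and -1.54 ± 0.58 in scMSC against DNCB (adjusted p = 0.116). The shared chain Il10rb measured 8.79, 9.15 and 9.12 FPKM in DNCB and from 4.53 to 8.06 FPKM elsewhere. Its log2 fold change was 0.52 ± 0.19 in DNCB against control (adjusted p = 0.0671). Both chains thus had DNCB values clear of the other groups without passing the test.

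In the IL-6 family, Il6 was nearly absent after MSCs. It measured 0.109, 0.0629 and 0.0236 FPKM in the control, 1.28, 0.322 and 0.856 in DNCB, 0, 0 and 0.0385 in scMSC and 0, 0.0381 and 0.0215 in scivMSC skin. The DNCB libraries lay above all others but differed among themselves. About 117 fragments were counted in DNCB, 2 in scMSC and 3 in scivMSC skin. The ratio of DNCB to scMSC was 58.8 (95% exact interval 15.9 to 491, adjusted p = 0.0238), and that of DNCB to scivMSC was 38.5 (12.8 to 189, adjusted p = 0.0435). The intervals cover counting error only, and the low side rests on few fragments: Il6 was at 0 in scMSC without replicate 3, and remained in 1 library of scivMSC without replicate 2. The first call was lost when DNCB replicate 1, DNCB replicate 3, scMSC replicate 1 or scMSC replicate 2 was left out (adjusted p from 0.0528 to 0.0785). The second was lost without control replicate 1 or 2 or any DNCB or scivMSC library (adjusted p from 0.0531 to 0.133). In DNCB against control the log2 fold change of Il6 was 3.34 ± 1.25 (adjusted p = 0.0745).

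Il11, a gp130 ligand known from matrix and wound repair, rose in DNCB. It measured 0.174, 0.242 and 0.168 FPKM in the control, 0.794, 0.927 and 0.351 in DNCB, 0.297, 0.419 and 0.596 in scMSC and 0.619, 0.378 and 0.639 in scivMSC skin. The control libraries were the lowest, and the other groups overlapped. The log2 fold change was 1.60 ± 0.47 (adjusted p = 0.0299), lost without any control library or without DNCB replicate 1 or 2 (adjusted p from 0.05 to 0.106).

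The IL-11 receptor gene Il11ra2 fell in DNCB and rose after MSCs. It measured 1.32, 1.62 and 2.46 FPKM in the control, 0.461, 0.739 and 1.12 in DNCB, 3.98, 3.37 and 2.36 in scMSC and 2.40, 1.91 and 2.76 in scivMSC skin. The DNCB libraries lay below the other 9. Log2 fold changes were -1.38 ± 0.37 (adjusted p = 0.0188), 2.08 ± 0.37 in scMSC against DNCB (adjusted p = 0.00562) and 1.62 ± 0.37 in scivMSC against DNCB (adjusted p = 0.0251). The fall was lost without control replicate 3 or DNCB replicate 1 or 2 (adjusted p from 0.0549 to 0.0650), and the rise in scivMSC when DNCB replicate 1, DNCB replicate 2, scivMSC replicate 1 or scivMSC replicate 3 was left out (adjusted p from 0.0737 to 0.0882). Il11ra2 and Il11ra1 are near-identical copies that can share reads, and Il11ra2 overlaps Ccl27b, so its level is uncertain. Il11ra1, at 14.4 to 20.5 FPKM, was not called. Neither were Il6st, at 12.6 to 28.2 FPKM, and Il6ra, at 4.86 to 13.7 FPKM, nor Il27 and Il27ra.

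**Figure D5:**
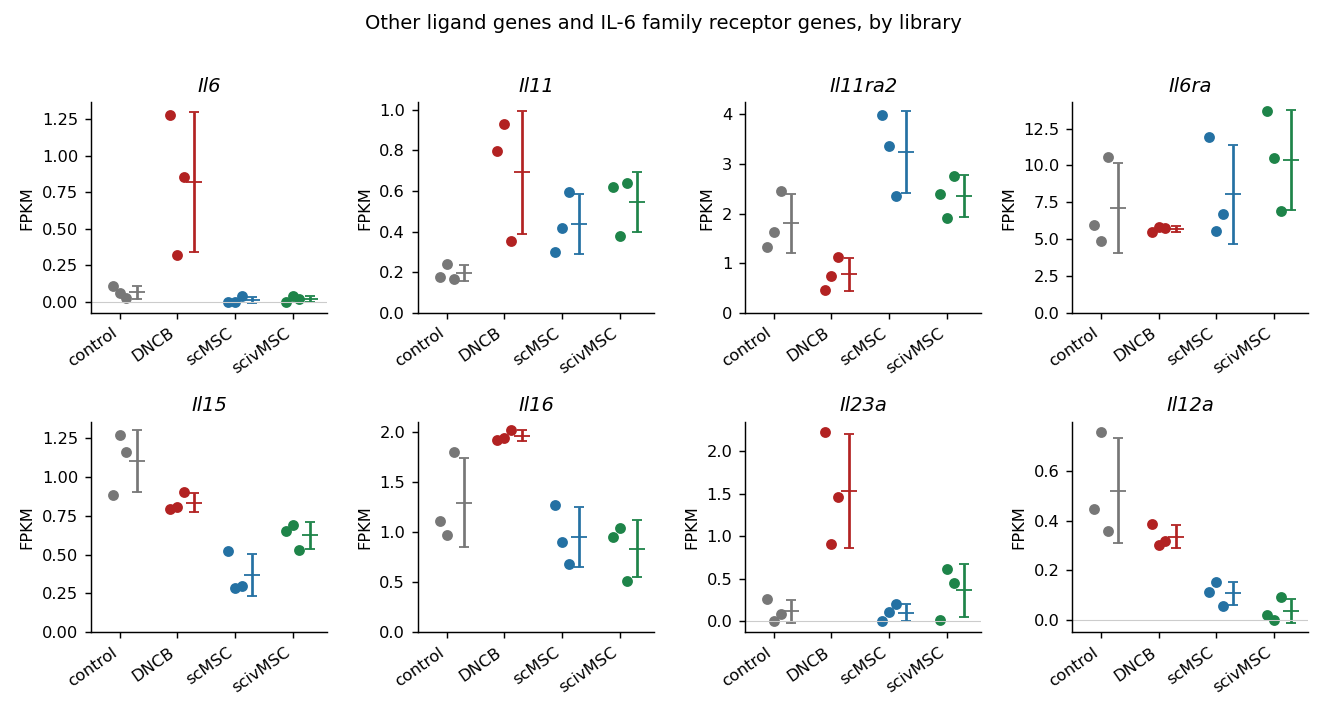
FPKM of 6 ligand genes and 2 receptor genes in each library (points, 3 per group), with the group mean and SD beside them; each panel has its own FPKM axis. Il6, Il16 and Il23a are highest in DNCB, Il15 is lowest in scMSC, and Il12a is at most 0.151 FPKM in all 6 MSC libraries.

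Of the IL-17 group, the receptor genes Il17rc and Il17ra had higher mean FPKM than any of the ligand genes. Il17ra, the chain shared by receptors of the family, measured 2.64, 2.20 and 3.51 FPKM in the control, 6.08, 5.54 and 8.51 in DNCB, 5.08, 4.29 and 3.90 in scMSC and 5.46, 5.26 and 3.17 in scivMSC skin. The DNCB libraries lay above the rest, and the scMSC libraries lay between them and the control libraries. In DNCB against control Il17ra rose, with a log2 fold change of 1.09 ± 0.22 (adjusted p = 0.00541). After MSCs its log2 fold change from the DNCB level was -0.58 ± 0.22 in scMSC (adjusted p = 0.124) and -0.54 ± 0.22 in scivMSC (adjusted p = 0.174). Il17rc, its partner for IL-17A and IL-17F, measured 28.0, 30.5 and 36.0 FPKM in the control, 37.6, 41.6 and 33.4 in DNCB, 28.6, 24.2 and 20.4 in scMSC and 33.1, 38.0 and 32.1 in scivMSC skin. The scMSC libraries lay below all DNCB and scivMSC libraries. Il17rc was lower in scMSC by less than 2-fold, with log2 fold changes of -0.60 ± 0.14 against DNCB (adjusted p = 0.0190) and -0.52 ± 0.14 against control (adjusted p = 0.0264). The first was lost without DNCB replicate 1 or 2 or scMSC replicate 3 (adjusted p from 0.0582 to 0.0801), and the second without control replicate 3 or scMSC replicate 3 (adjusted p of 0.0619 and 0.0822).

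Il17re, the IL-17C receptor chain, ranged from 1.84 to 3.61 FPKM, and Il17rd from 0.474 to 1.91 FPKM. Neither was called, nor was Il17rb. Il17d ranged from 0.325 to 2.17 FPKM and was the most abundant ligand of the group. Il17a was at most 0.445 FPKM in any library, was listed at 0 in every scMSC library and was not called in any comparison (adjusted p = 0.876 in DNCB against control). Il17b and Il17c were not called, and Il17f and Il25 were below the level tested. Thus the DNCB call in this group was on a receptor chain alone, at this depth.

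Il18rap, the accessory chain that lets the IL-18 receptor signal, had the largest receptor rise in DNCB that could be fitted. It measured 0.248, 0.0452 and 0.268 FPKM in the control, 1.39, 1.56 and 2.00 in DNCB, 0.331, 0.103 and 0.0631 in scMSC and 0.269, 0.218 and 0.226 in scivMSC skin. The DNCB libraries stood apart from the other 9, which overlapped. Log2 fold changes were 2.96 ± 0.67 in DNCB against control (adjusted p = 0.00879), -3.30 ± 0.68 in scMSC against DNCB (adjusted p = 0.0103) and -2.78 ± 0.66 in scivMSC against DNCB (adjusted p = 0.0294). The scMSC value was -4.22 without scMSC replicate 1. The scivMSC call was lost without any one of the DNCB or scivMSC libraries (adjusted p from 0.0681 to 0.0968). Il18r1, the binding chain of the same receptor, lies 14507 bases away and was not called, at 0.323 to 0.789 FPKM. Il18bp, which binds IL-18 in solution, ranged from 0.613 to 1.73 FPKM and was not called.

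Il16, a chemoattractant of CD4+ cells, measured 1.11, 0.969 and 1.80 FPKM in the control, 1.92, 1.94 and 2.02 in DNCB, 1.27, 0.897 and 0.678 in scMSC and 0.947, 1.04 and 0.509 in scivMSC skin. The DNCB libraries were highest, close above 1 control library. Against DNCB it fell by 1.03 ± 0.30 on the log2 scale in scMSC (adjusted p = 0.0459) and by 1.24 ± 0.30 in scivMSC (adjusted p = 0.0308). The scMSC call was lost without control replicate 1 or 2, any DNCB library, scMSC replicate 2 or 3 or scivMSC replicate 1 or 2 (adjusted p from 0.0501 to 0.141). Of 21 alternative runs in all, 13 lost it, among them those with library size alone, without a filter and with limma on log2(FPKM + 0.1). The scivMSC call was lost without any DNCB library or without scivMSC replicate 1 or 3 (adjusted p from 0.0806 to 0.0964). Il34 measured 11.3, 9.33 and 11.4 FPKM in the control, 6.49, 7.17 and 5.92 in DNCB, 10.3, 4.39 and 3.84 in scMSC and 9.53, 6.28 and 5.62 in scivMSC skin. Its log2 fold change was -0.89 ± 0.32 in DNCB against control (adjusted p = 0.0677). Il3ra, the IL-3 receptor chain, ranged from 1.10 to 3.99 FPKM and was not called.

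Il12a encodes the p35 subunit of IL-12 and was the only member called in scivMSC against control. It measured 0.447, 0.759 and 0.357 FPKM in the control, 0.387, 0.300 and 0.318 in DNCB, 0.113, 0.151 and 0.0558 in scMSC and 0.0170, 0 and 0.0910 in scivMSC skin. All 6 MSC libraries lay below the control and DNCB libraries. The scivMSC libraries were at the floor, so the size of a fold against them is uncertain. Il12a fell in scivMSC against control by 3.89 ± 1.02 on the log2 scale (adjusted p = 0.0309), with values of -3.29 without scivMSC replicate 2 and -5.76 without scivMSC replicate 3. The call was lost without control replicate 1 or 2 or scivMSC replicate 1 (adjusted p from 0.0635 to 0.105). Il23a, the p19 subunit of IL-23, measured 2.23, 0.903 and 1.46 FPKM in DNCB and at most 0.617 FPKM elsewhere, without passing (adjusted p = 0.115 in DNCB against control). Il12b, the subunit both cytokines share, was at the floor in every group. Il12rb1 and Il12rb2 were not called, and Il23r was below the level tested. Il12rb2 measured 0.638, 0.401 and 0.573 FPKM in the control and at most 0.311 FPKM elsewhere. Its log2 fold change was -2.80 ± 1.02 in DNCB against control (adjusted p = 0.0676).

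Genes that act with or after these interleukins were taken from lists chosen with earlier results of these data known. Of all genes, 6.59% were called higher in DNCB, and 3.84% lower in scMSC and 2.33% lower in scivMSC against DNCB. Of 12 receptor partners and ligands outside the name rule, 3 rose in DNCB (Osm, Clcf1 and Csf2rb2), 3 fell in scMSC against DNCB (Osm, Clcf1 and Csf2rb2) and 2 fell in scivMSC against DNCB (Osm and Csf2rb2). Osm encodes oncostatin M, a gp130 ligand of myeloid cells. It measured 0.611, 0.271 and 0.390 FPKM in the control, 13.9, 8.33 and 6.03 in DNCB, 0.391, 0.318 and 0.0644 in scMSC and 0.326, 0.132 and 0.0628 in scivMSC skin. Its log2 fold change was 4.27 ± 0.70 in DNCB against control (adjusted p = 0.00195), -5.14 ± 0.73 in scMSC against DNCB (adjusted p = 0.00239) and -5.72 ± 0.75 in scivMSC against DNCB (adjusted p = 0.00409). The list's median log2 fold changes were 0.53, -0.76 and -0.74 in these comparisons, beside 0.02 over all genes in each.

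Of 10 Janus kinases and STATs tested, none was called in DNCB against control or in either MSC group against DNCB. At an adjusted p under 0.05 but under 2-fold, Stat3 and Stat6 rose and Stat5a and Stat5b fell in DNCB. In scMSC against DNCB 5 fell (Jak1, Jak2, Jak3, Stat3 and Stat6), and in scivMSC against DNCB 2 fell (Jak2 and Stat3). Without the 2-fold limit, 25.3%, 12.7% and 8.16% of all genes passed in these comparisons, in the same order. The medians were 0.19, -0.53 and -0.31. Of 10 feedback inhibitors, Socs3, which restrains gp130 signalling and is also in the IL-6 and IL-10 response list, rose in DNCB by a log2 fold change of 1.43 ± 0.33 (adjusted p = 0.00948). It fell against DNCB by 2.52 ± 0.34 in scMSC (adjusted p = 0.00220) and by 1.92 ± 0.33 in scivMSC skin (adjusted p = 0.00913). Socs1 also fell in scMSC, by 1.34 ± 0.28 (adjusted p = 0.0117), which was lost without DNCB replicate 1 (adjusted p = 0.0511). The medians of this list were 0.37, -0.37 and -0.25.

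The counts in the response lists stand beside 6.59% of all genes called higher and 7.57% called lower in DNCB. Against DNCB, 4.66% were called higher and 3.84% lower in scMSC, and 3.13% higher and 2.33% lower in scivMSC. Differences between lists were not tested. Of 14 IL-17 signalling and response genes, 10 rose in DNCB, 11 fell in scMSC and 8 fell in scivMSC against DNCB, and none was called in the other direction (medians 3.50, -4.87 and -3.74). Ccl20 was lower in every DNCB library (0.993, 0.439 and 0.920 FPKM) than in any control library (1.34, 1.10 and 1.39 FPKM) and was not called (adjusted p = 0.329). The neutrophil attractant Cxcl5 measured 14.6, 6.26 and 24.7 FPKM in DNCB and at most 0.249 FPKM elsewhere, and its log2 fold change in scivMSC against DNCB was -6.95 ± 1.17 (adjusted p = 0.00796). Of 9 IL-20 and IL-22 response genes, 9 rose in DNCB (median 4.36). In scMSC against DNCB 6 fell and 1 rose (median -4.36), and in scivMSC 2 fell and 1 rose (median -1.99). The gene that rose was S100a7a in both. Against control, 2 of the list were called higher in scMSC (Krt17 and S100a7a), beside 5.12% of all genes. In scivMSC 4 were called higher than in control (Krt17, Krt6a, Krt6b and S100a7a), beside 3.50%, and none was called lower in either group. Krt6b, a keratin of activated epidermis, measured 51.5, 36.7 and 54.8 FPKM in the control, 2131, 2828 and 2272 in DNCB, 36.4, 54.3 and 31.6 in scMSC and 72.7, 1021 and 117 in scivMSC skin. Krt6b had a log2 fold change of 5.48 ± 0.91 in DNCB against control (adjusted p = 0.00201) and -5.85 ± 0.92 in scMSC against DNCB (adjusted p = 0.00337). The scivMSC library with 1021 FPKM was replicate 2, which also held the only Il24 of its group. That library was also the highest of its group for Krt16, Krt6a and Cxcl2, but the lowest for Il20 and Il18rap. Whether these values are linked was not tested. Of 9 IL-6 and IL-10 response genes, 5 rose in DNCB, 5 fell in scMSC and 3 fell in scivMSC (medians 1.43, -1.15 and -0.85). Of 9 IL-4 and IL-13 response genes tested, 3 rose (Arg1, Chil3 and Postn) and 2 fell (Clca1 and Retnla) in DNCB, 2 rose and 2 fell in scMSC, and 1 rose and 1 fell in scivMSC (medians -1.12, -0.03 and -0.38). Retnla, a macrophage gene induced by IL-4, fell in DNCB by 5.03 ± 0.86 on the log2 scale (adjusted p = 0.00229). Chil3, of the same list, rose there by 4.88 ± 1.19 (adjusted p = 0.0126), so the list had no single direction.

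Markers of cell types the skin can hold are given beside these results. Their counts stand beside 6.59% of all genes called higher and 7.57% called lower in DNCB against control. Summed FPKM of 8 neutrophil markers ran from 121 to 208 in the control, 2542 to 3519 in DNCB, 16.1 to 66.4 in scMSC and 34.6 to 182 in scivMSC skin. Of them 7 rose and 1 (Mpo) fell in DNCB, and Ly6g was at 0 in every library outside DNCB. S100a8 and S100a9, which are also in the IL-17 response list and which keratinocytes can express, made up most of these sums, with 905 and 2089 FPKM in DNCB replicate 1. The sums of 7 T cell markers were 14.2 to 19.4, 36.7 to 42.6, 14.5 to 28.3 and 21.2 to 34.8 in the same order, with 1 of 7 (Trbc2) higher in DNCB. Trbc2 alone made up 33.0 to 39.8 FPKM of the DNCB sums, and the median log2 fold change of the list was -0.33. The sums of 7 macrophage and monocyte markers were 181 to 700, 656 to 699, 147 to 353 and 42.9 to 368, with none called. Their part in the changes of Il4ra, Il2rg, Il10ra, Il18rap, Il17ra, Il6 and Osm was not tested. For 7 mast cell markers the sums were 22.2 to 37.6, 91.1 to 107, 52.3 to 116 and 18 to 110, with 2 higher in DNCB. The 4 Langerhans cell markers summed to 175 to 270, 101 to 114, 111 to 223 and 130 to 225, with 3 lower in DNCB. Of 4 tested natural killer and innate lymphoid markers 2 (Gata3 and Rora) fell in DNCB, with sums of 28.0 to 40.3, 16.2 to 18.1, 39.5 to 44.5 and 33.4 to 41.5 FPKM in the same order. Gata3 and Rora, which other skin cells express too, made up nearly all of these sums, with 18.6 and 9 FPKM in control replicate 1. Eosinophil markers were almost absent, with sums from 0 to 1.09 FPKM and Epx at 0 in every DNCB and MSC library, and 1 of 3 tested (Ccr3) rose in DNCB. B cell markers summed to 10.3 to 21.2 FPKM in the control, 3.99 to 6.49 in DNCB, 2.42 to 6.56 in scMSC and 2.10 to 4.98 in scivMSC skin, and of 2 tested Ighm fell in DNCB.

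Among structural cells, 6 keratinocyte markers summed to 5089 to 10125 FPKM in the control, 13187 to 19277 in DNCB, 4656 to 8224 in scMSC and 7972 to 14539 in scivMSC skin, and were abundant in every library of the labelled tissue. In DNCB 2 of them rose (Krt5 and Krt14) and 1 fell (Krt15). Fibroblast markers summed to 232 to 346 FPKM in the control and 1916 to 2233 in DNCB, with 4 of 6 higher there, and to 245 to 750 in scMSC and 124 to 946 in scivMSC skin. Replicate 3 was the lowest scivMSC library for the fibroblast marker Col1a1 (36.4 FPKM) and the macrophage markers Lyz2 (22.6 FPKM) and Mrc1 (1.25 FPKM). It was also lowest of its group for Il4ra, Il2rg and Il16, but not for Il18rap and Il6. Whether these values are linked was not tested. Markers of skeletal muscle were 11990 to 17514 FPKM in the control and 3238 to 8699 FPKM in the other groups, with 4 of 5 lower in DNCB. Adipocyte markers summed to 187 to 325 FPKM in the control, 127 to 235 in DNCB, 206 to 401 in scMSC and 273 to 392 in scivMSC skin, with 2 of 5 lower in DNCB. Hair shaft and inner root sheath markers summed to 3.02 to 275 FPKM in the control, 275 to 856 in DNCB, 5942 to 16806 in scMSC and 2225 to 5501 in scivMSC skin. All 6 of these were called higher in scMSC than in control skin, beside 5.12% of all genes. The part of these shifts in the changes of Il19, Il20, Il20ra, Il22ra2, Il24, Il31ra, Il11, Il11ra2 and Il12a was not tested.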

How the data were processed

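Dorsal skin RNA of 12 libraries was analysed. The authors deposited FPKM, which take account of gene length and library size. The deposited table also gives estimated counts as whole numbers, without normalization. Per the labels, Bowtie 0.12.2, HISAT2 2.0, StringTie 1.3.0 and build mm8 were used in some role, but the gene coordinates in the table are those of GRCm38: 36285 of 36287 identifiers shared with GENCODE M21 overlap their position there. Strandedness is not given in the sources used here, so reads of overlapping genes cannot be told apart. This concerns 25 of the 62 members, 6 of which passed in a comparison (Il4ra, Il2rg, Il16, Il20ra, Il31ra and Il11ra2). Il13 was not analysed here. In each library 38.9% to 41.2% of the estimated counts between 1 and 18 divided evenly by 4.

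The estimated counts of genes whose mean reached 0.1 FPKM were fitted with edgeR 4.0.16 (TMM, quasi-likelihood F-test, 4 groups in 1 model, R 4.3.3). The common biological coefficient of variation was 0.420, with TMM factors between 0.887 and 1.06. Standard errors were derived from the F statistic, and p-values were adjusted over all genes tested. The steps were also run on simulated data, and no result here rests on that run. Its changed genes had higher counts, and its counts did not step by fragment, so it does not cover groups at the floor. Exact permutation of 3 libraries against 3 cannot give a two-sided p below 0.10, so single-gene exact tests were not used. The 3 libraries of a group were taken to come from separate mice, which neither the labels nor the study's methods state. The p-values rest on this. Members named are those called in a comparison, those with a mean of at least 1 FPKM, and Il4, Il4ra, Il13ra1 and Il17ra, 34 in all. From each list of partner, signalling and response genes up to 3 called genes with the largest change could be named. Il10, Il23a, Il17a and other members outside the rule, and list members given by name only, were chosen after their values were seen. The members and lists were chosen with earlier results of these data known.

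Alternatives were DESeq2 1.42.0, limma 3.58.1 on log2(FPKM + 0.1) and on log2(FPKM + 1), library size alone, other filters, 6 libraries alone, counts divided by 4, the replicate number as a block, and leaving out each library. Promoter sequences came from RefSeq (GRCm38.p6). Tables and figures used Python 3.11.15, pandas 2.3.3, numpy 2.4.6, scipy 1.17.1 and matplotlib 3.10.9.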

Additional observations from a re-analysis of the deposited data

How the results depend on the processing

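The count of called members was followed under 21 alternatives. Leaving out 1 library gave 6 to 13 members in DNCB against control, 7 to 13 in scMSC against DNCB, 0 to 9 in scivMSC against DNCB, 1 to 6 in scMSC against control and 0 to 1 in scivMSC against control, and 0 between the routes. In scMSC against DNCB the count of 12 became 7 with a minimum mean of 1 FPKM, where fewer members are tested. In scMSC against control the count of 2 became 6 with DESeq2, 4 with counts divided by 4, and 1 without a filter, with 6 libraries alone or with limma on log2(FPKM + 1). In scivMSC against control the count of 1 became 2 with DESeq2 and with counts divided by 4, and 0 with the 1 FPKM minimum, 6 libraries alone or limma on log2(FPKM + 1). Between the routes DESeq2 gave 1. Where no construction is named, the cause was not tested.

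Same-numbered libraries did not deviate together (correlations from -0.185 to 0.133, 1 of 18 pairs over 0.1), and 3 of 12 libraries correlated best with their own number. With the replicate number as a block the counts were 7 in scMSC against DNCB, 5 in scivMSC against DNCB and 0 in scivMSC against control.

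Of 108 log2 fold changes of named members followed, 39 passed an adjusted p of 0.05, and 13 of these passed under every alternative in which they were tested, with no change of sign: 9 under all 21 and 4 under 20, since Il15, Il18rap and Il21r fall under the 1 FPKM minimum. Of 31 followed for list genes, 20 passed under every alternative in which they were tested. The losses given with each gene above are mainly those of left-out libraries. Some calls were also lost under other alternatives, such as Il11 in DNCB against control and Il6 in scivMSC against DNCB. Of those not past 0.05, Il20 in scivMSC against control (0.87) ran from -0.33 without scivMSC replicate 3 to 1.47 without control replicate 2, and Il22ra2 in scMSC against DNCB (0.90) from -0.16 without scMSC replicate 1 to 1.55 without DNCB replicate 1, so both changed sign. With a common biological coefficient of variation of 0.420 and 3 libraries per group, a missed threshold does not show that groups were alike.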
